A study of Mus musculus with 12 samples.

Results

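Transcripts that the mouse annotation types as targets of nonsense-mediated decay (NMD) were followed in the poly(A) RNA of whole mouse retina. A transcript row was kept where its biotype was nonsense_mediated_decay and its RPKM, a read density scaled to transcript length and library size, was at least 1 in 3 or more of the 12 libraries. The members were thus chosen by annotation and by the measured RPKM itself. This rule kept 2049 transcripts of 1635 genes, which is 28.1% of the 7298 rows of that biotype and a small part of the 141450 transcript rows in all. The value followed is the share of a transcript in the summed RPKM of its gene. The libraries came from mice labelled Pilrb1/2+/+ (wild type) and Pilrb1/2 -/- (knockout), each at 28 days after birth (P28) and at 12 months, with 3 libraries in each of the 4 groups. The series text describes a CRISPR deletion of Pilra together with Pilrb1/2, made in C57BL/6J zygotes and then crossed to C57BL/6J, so all groups share that background and the labels of the libraries name Pilrb1/2 alone. The study's title sets the deletion against the human PILRB/PILRA locus of age-related macular degeneration. The labels do not tell whether libraries of a group are separate animals, and p-values then measure only the spread between these libraries.

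NMD degrades messenger RNAs on which a ribosome stops well before the last exon junction. Splicing leaves an exon junction complex near each junction, and a complex that stays behind a terminating ribosome lets UPF2 and UPF3 reach the helicase UPF1, which SMG1 then phosphorylates so that SMG5 and SMG6 can start decay. Many splicing factor genes use this route to hold down their own level: the protein favours inclusion of a poison exon, or splicing of an intron behind the normal stop codon, and the resulting transcript is degraded. What poly(A) RNA shows of such transcripts is the part that remains at steady state.

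To show how these transcripts end their reading frames, the coding part of the exon that holds the stop codon is printed below for 6 of them on which the comparisons turn. The bases come from the GENCODE vM21 transcripts (GRCm38), read 5′ to 3′ on the transcript strand, with at most the last 90 coding bases of the exon and the stop codon in capitals. The first 4 stop in an exon that no coding transcript of the gene has.
Tra2b-206: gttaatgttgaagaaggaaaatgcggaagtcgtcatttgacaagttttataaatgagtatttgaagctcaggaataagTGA
Srsf7-203: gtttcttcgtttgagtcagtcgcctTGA
Rbm39-224: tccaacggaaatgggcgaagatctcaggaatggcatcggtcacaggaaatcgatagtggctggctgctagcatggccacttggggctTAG
Atp2c1-218: ttttaccccaagattTAA
Hnrnpa1-203 stops at the same codon as a coding transcript, and an intron is removed behind it.
Hnrnpa1-203: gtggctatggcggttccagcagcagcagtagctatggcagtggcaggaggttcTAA
Ppcdc-213 stops in an exon with other ends than in coding transcripts.
Ppcdc-213: gaccaagccagagccTGA
The stop of Tra2b-206 lies in exon 2 of 10 (chr16:22258986-22259261, minus strand), 1015 bases before the last junction. For Srsf7-203 it lies in exon 4 of 9 (chr17:80204622-80205081, minus strand), 699 bases before the last junction, and for Rbm39-224 in exon 3 of 5 (chr2:156177752-156177906, minus strand), 67 bases before it. For Atp2c1-218 it lies in exon 23 of 24 (chr9:105407116-105407203, minus strand), 70 bases before the last junction. Hnrnpa1-203 stops in exon 9 of 11 (chr15:103243959-103244028, plus strand), 90 bases before the last junction. Ppcdc-213 stops in exon 6 of 7 (chr9:57415086-57415472, minus strand), 369 bases before it.

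Stop positions were read from GENCODE vM21 models, 2005 of which carry the same biotype. They thus describe that label and do not test it. Of the 2049 transcripts, 2008 were found in GENCODE vM21 with the same start, end and length, and 2005 of these have an annotated stop codon. In 1990 of the 2005 (99.3%) the stop lay at least 50 bases before the last exon junction, the distance beyond which decay is usually triggered, and 15 fell short of it. The median distance was 379 bases, with quartiles of 183 and 838 bases, and a median of 3 junctions followed the stop. The stop codon was TGA in 52.8%, TAA in 25.7% and TAG in 21.5%. Stops could be placed against coding transcripts for 1982: 882 lay in an exon shared with a coding transcript, 486 in an exon with other ends, 474 in an exon outside all coding transcript exons, and 140 at a stop codon that a coding transcript also uses. In 650 of the 2005 (32.4%) the 5′ end of the model is tagged as incomplete, so that the frame rests on the annotators' choice.

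**Figure D1:**
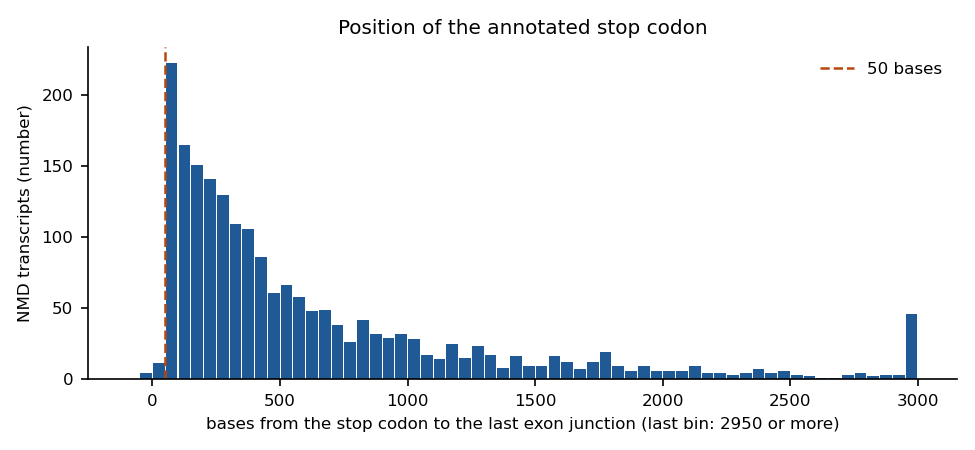
Number of NMD transcripts (vertical axis) by the bases from the annotated stop codon to the last exon junction (horizontal axis, bins of 50 bases, the last bin holding all longer distances). The dashed line marks 50 bases, and 15 of 2005 transcripts lie before it.

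Depth was estimated from the steps between low gene values, of which only 14.2 to 28.2% lay on whole reads. This put the libraries at 14.8 to 26.1 M reads, at which the median NMD transcript held 52.6 to 99.7 reads. An RPKM of 1 at the median length corresponded to 24.6 to 42.8 reads. Pilrb1 and Pilrb2 were at 0 in 11 of 12 libraries each and reached 0.052 and 0.0436 CPM (reads scaled to the effective library size) in the other, so their RNA does not check the labels, and Pilra was above 0 in all 12 (P28 knockout: 0.441 to 1.16 CPM; P28 wild type: 0.133 to 0.17 CPM). Every direction below therefore rests on the labels. All 8 rod marker genes were detected, at a sum of 19804 to 40784 CPM. Xist exceeded 100 CPM, as in females, in 2 of 3 P28 knockout libraries, in 2 of 3 12-month wild-type libraries and in no other. P28 knockout library 2 stood apart with 5257 CPM over the lens marker list (11 of its 13 rows detected), against 11.2 to 1862 CPM in the other 11. Counts of calls are also given with a sex term or without single libraries, and outcomes for named transcripts only in part.

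NMD transcripts were a small part of the retinal RNA. All 7298 rows together held 2.65 to 2.85% of the summed RPKM in P28 wild type, 2.98 to 3.38% in P28 knockout, 2.89 to 2.96% in 12-month wild type and 2.47 to 2.70% in 12-month knockout. The 3 knockout libraries lay above the wild type at P28 and below it at 12 months, and groups of the same age did not overlap. This sum also moves with the level of the host genes. Per transcript, the median over members of the mean share was 12.0%, with quartiles of 5.43% and 25.6%. In 464 transcripts the share averaged under 5%, and in 195 it averaged over 50%. The median RPKM was 2.19. Of the members, 976 were at 1 RPKM or more in all 12 libraries, 149 in exactly 3, and 13 passed only through libraries of 1 group. Just inside the threshold by the third highest RPKM were 0610010F05Rik-207, Map2k3-203 and Rrp1b-213 (1.00094, 1.00145 and 1.0022 RPKM), and just outside were Dock6-204, Xkr6-205 and Ap2a1-208 (0.999886, 0.999661 and 0.992832 RPKM).

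**Figure D2:**
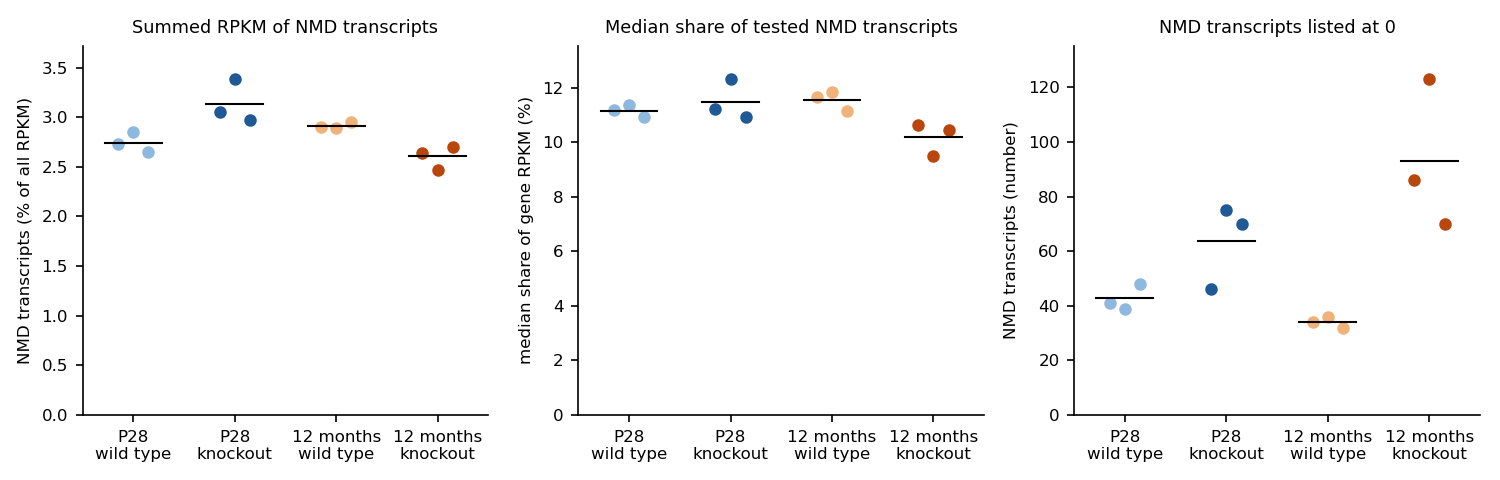
Each point is a library and each bar the mean of the 3 libraries of a group. From left to right, the vertical axes give the summed RPKM of all NMD rows as a percentage of all RPKM, the median share of gene RPKM over the 2001 tested NMD transcripts, and the number of the 2049 transcripts listed at 0. The 12-month knockout libraries lie below those of 12-month wild type in the first panel (2.47 to 2.70% against 2.89 to 2.96%) and reach 123 transcripts at 0 in the last.

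A few NMD transcripts were the main product listed for an abundant gene. Ppia-201, from the gene of the prolyl isomerase cyclophilin A, held 96.7 to 98.6% of its gene in every library, at a mean of 522 RPKM in P28 wild type and 349 RPKM in 12-month knockout. Rpsa-206, from a gene of the small ribosomal subunit, held 92.7 to 96.1%, and Atp5pb-203, from the gene of ATP synthase subunit b, held 86.5 to 93%. Both genes and Ppia have near-identical processed copies in the genome, so how reads were divided among them is uncertain. Ddx5-208, from the gene of an RNA helicase that acts in splicing, held 42.5 to 52.6% at group means of 457 to 545 RPKM, a level like that of Ppia-201. In Rpgrip1, which encodes a protein of the photoreceptor connecting cilium, Rpgrip1-217 held 24.3 to 32.3%, except for 15.8% in P28 knockout library 2. Its level was 145 to 225 RPKM by group mean, although it covers only 4 exons. Tra2a-202, a form of the splicing regulator gene Tra2a with its stop in an exon outside coding transcripts, held 47 to 78.9%, and Clk1-210, from the gene of a kinase that phosphorylates SR proteins, held 15.5 to 39.9%. None of the changes of these 7 passed the test (limma; lowest adjusted p = 0.0902, Tra2a-202 at 12 months).

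To ask whether the loss of the receptor genes changed how much of a gene's RNA is an NMD form, the log2 ratio of a transcript's RPKM to that of all other transcripts of its gene was fitted with limma over 30475 transcripts of all biotypes, 2001 of them members. The other 48 members, 22 with a predicted gene symbol, had too little RPKM from other transcripts to form a ratio. A ratio within a gene needs no scaling between libraries. Since 0.1 RPKM was added to both terms, a log2 change is printed only where no library of the compared groups was at or near 0, and other members are given by their shares and the adjusted p.

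At P28 no NMD transcript differed between the genotypes in limma after adjustment (0 higher and 0 lower of 2001, 190 at an unadjusted p under 0.05). Of all tested transcripts 0.0591% were called, 0.0328% higher and 0.0263% lower. Among the smallest adjusted p was that of Senp2-208, from a SUMO protease gene, at 2.95, 3.69 and 3.72% in wild type and 13.9, 9.78 and 17.6% in knockout (log2 ratio change 2.07 ± 0.32 SE, limma adjusted p = 0.069). The groups did not overlap. Retreg2-204, from the gene of a receptor of endoplasmic reticulum turnover, was at 0.000746 to 0.0439% in wild type and 8.52, 5.27 and 9.59% in knockout (limma adjusted p = 0.0775). Both were singled out after their values were seen. Over all members the median change was 0.01, with 0.17 for retained-intron forms and -0.12 for coding forms.

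At 12 months 110 NMD transcripts passed, 33 with a higher and 77 with a lower share in knockout (limma, n = 3 against 3). That is 5.50% of the members, near the 6.37% of all tested transcripts called (2.72% higher and 3.64% lower), so members passed about as often as other transcripts. Their median change was -0.17 on the log2 scale, against -0.01 over all tested transcripts, 0.17 for retained-intron forms and -0.12 for coding forms. After removal of a GC and length trend the medians were -0.06 for members and -0.02 for all tested transcripts. Among the 960 tested members at 1 RPKM or more in all libraries the median was -0.03, against 0.07 over all transcripts so filtered. Of these members 42 were higher and 63 lower, and of the 17657 transcripts so filtered 1059 were higher and 938 lower. Against coding transcripts alone as the other term of the ratio, 53 of 1923 members were higher and 63 lower. Of the 26061 transcripts in that fit 1162 were higher and 771 lower. The median share over tested members was 10.6, 9.50 and 10.5% in the 3 knockout libraries and 11.7, 11.8 and 11.2% in wild type, so the groups did not overlap. More members were also listed at 0 in knockout: 86, 123 and 70, against 34, 36 and 32 in wild type.

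**Figure D3:**
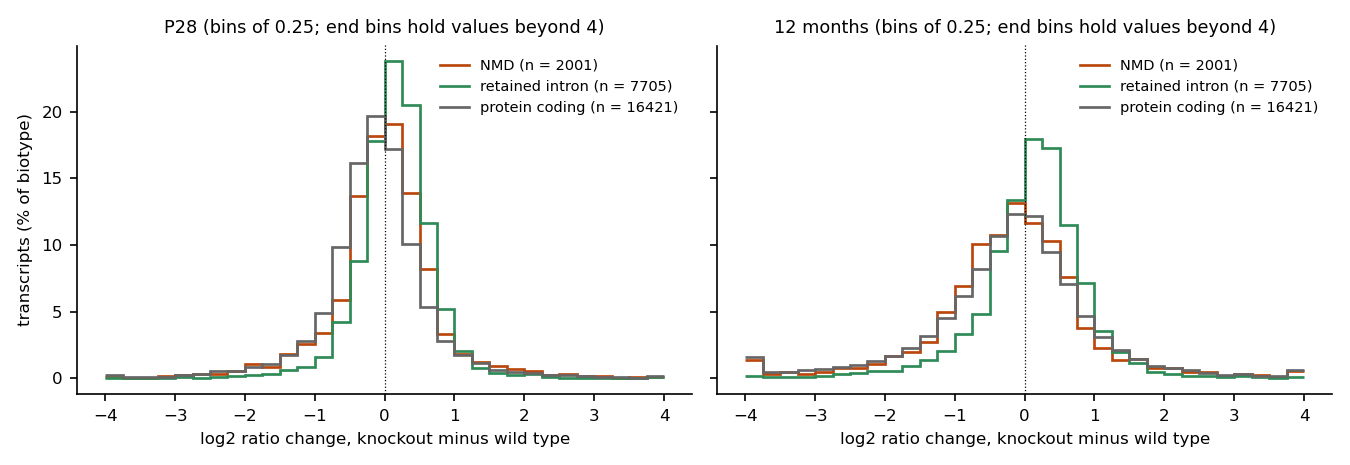
Percentage of the tested transcripts of each biotype (vertical axis) by log2 ratio change, knockout minus wild type (horizontal axis), at P28 (left) and at 12 months (right). At 12 months the line of the NMD transcripts is centred near that of coding transcripts (medians of -0.17 and -0.12), and the line of retained-intron transcripts lies to their right (median 0.17).

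Several library measures moved with genotype at 12 months. Mitochondrial genes took 9.94 to 12.6% of CPM in knockout and 7.36 to 8.29% in wild type, the rod marker sum was 19804 to 26624 CPM against 33695 to 40784 CPM, and the pigment epithelium marker sum (9 of 10 genes detected) was 269 to 299 CPM against 375 to 562 CPM. The rod marker sum was apart at P28 as well, at 21030.5 to 26657.6 CPM in knockout and 30098.9 to 40616.5 CPM in wild type. The mitochondrial share went the other way at P28 (4.56 to 7.08% in knockout, 7.36 to 9.31% in wild type). In such bulk RNA, fewer rods and less RNA per rod cannot be told apart. Their part in the share changes was not tested. Knockout libraries were also shallower by the depth estimate, at 17.2 to 20.8 M reads against 22.6 to 26.1 M. All 3 were male against 1 of 3 in wild type. With a sex term 13 members passed, 1 higher and 12 lower, against 135 higher and 156 lower over all 30475 tested transcripts. The number of calls in limma also moved with single libraries: without 12-month wild-type library 1, 2 or 3 it was 4, 17 or 13, without 12-month knockout library 1 or 2 it was 55 or 11, without P28 wild-type library 1, 2 or 3 it was 55, 46 or 55, and without P28 knockout library 2, through the shared spread, it was 259. All 110 kept their direction in each of these fits. Without a P28 library this was fixed in advance, since the 12-month group means stay the same.

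The members that passed most steadily at 12 months were lower in knockout. Cpsf6-204, Fam204a-202 and Ppcdc-213 were among the 4 that passed in limma whichever of the 12 libraries was left out, and they passed with a sex term as well. Ppcdc-213, from the gene of a decarboxylase of coenzyme A synthesis, held 17.7, 13.8 and 22.5% in wild type and 0.553, 0 and 0.276% in knockout (limma adjusted p = 0.00088, and at most 0.0235 over 27 alternatives). At P28 its share was 25.9, 23.8 and 17.6% in wild type and 20.3, 18.3 and 12.5% in knockout, so the 12-month knockout libraries stood alone. The other transcripts of Ppcdc summed to 8.95 to 9.94 RPKM in 12-month wild type and 7.06 to 9.47 RPKM in knockout. Cpsf6-204, from the gene of a factor of pre-mRNA 3′ end cleavage, held 5.89, 3.33 and 2.66% in wild type and was listed at 0 in knockout (limma adjusted p = 0.0049). Fam204a-202 held 2.78, 6.62 and 3.41% in wild type and at most 0.000686% in knockout (limma adjusted p = 0.00423). Both were named after their values were seen.

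A further 8 of the 110 passed with a sex term, and 5 of them, named after their values were seen, made up a small part of their genes. Rsrc2-213, from a gene of a serine- and arginine-rich protein, held 3.24, 3.33 and 2.9% in 12-month wild type and 1.21, 1.37 and 1.26% in knockout (log2 ratio change -1.31 ± 0.19 SE, limma adjusted p = 0.0123). Araf-207, from a RAF kinase gene, held 5.4, 5.57 and 5.47% and then 2.25, 2.7 and 3.06% (-1.07 ± 0.18 SE, limma adjusted p = 0.0222). Yaf2-202, from a gene of a Polycomb partner, held 5.77, 3.96 and 3.8% and then 0.991, 0.655 and 0.467% (limma adjusted p = 0.015). Its level in knockout was only 0.482, 0.392 and 0.211 RPKM. These 3 differed by less than the ones above, and none was listed at 0 in knockout. Psmc3-207, from a gene of the proteasome ATPase ring, held 4.68, 4.68 and 6.57% in wild type and was listed at 0 in knockout. Ankrd33-202, from a gene expressed in photoreceptors, held 9.76, 6.2 and 6.83% and then 0, 1.06 and 0.802% (limma adjusted p = 0.0137).

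A further 6 of the members with the largest falls at 12 months are given next. Atp2c1-218, from the gene of a Golgi calcium and manganese pump, held 16.8, 16.6 and 5.29% in wild type and 0.191, 0 and 0% in knockout (limma adjusted p = 0.0137). Stx5a-218, from the gene of a SNARE of the Golgi, held 11, 5.86 and 13% and then 1.09, 0 and 0% (limma adjusted p = 0.0202). Aup1-208, from a gene of lipid droplets and protein quality control, held 18.5, 26.5 and 17.1% and then 0, 0 and 2.71%. Shares that do not overlap between the genotypes were part of the rule that picked these 6, so that separation is no result. Ccny-204 (cyclin Y) held 25.8, 17.8 and 22.9% in wild type and was listed at 0 in knockout. Syncrip-203, from the gene of the RNA-binding protein hnRNP Q, held 17.9, 19.6 and 7.15% and then 1.62, 0 and 0%. Scg3-206, from a gene of secretory granules, held 16, 6.79 and 4.52% and then 0.577, 0.799 and 0%. The adjusted p of these 3 and of Aup1-208 lay between 0.0276 and 0.0486 in limma. None of them passed with a sex term, while Atp2c1-218 and Stx5a-218 did (limma adjusted p = 0.0448 each).

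The largest rises were in transcripts that 12-month wild type nearly lacked. Ttc3-231, from a ubiquitin ligase gene, held 0, 1.36 and 0% in wild type and 22.7, 24.2 and 9.95% in knockout (limma adjusted p = 0.0222). Fxr1-207, from the gene of an RNA-binding relative of FMRP, held at most 0.13% in wild type and 12.7, 22.3 and 13.7% in knockout. Efhd1-202, from the gene of a mitochondrial calcium-binding protein, held at most 1.18% and then 45.5, 65.3 and 27.1%, and Usp45-205, from a deubiquitinase gene, at most 0.231% and then 11.2, 36.7 and 19.1%. The P28 libraries of a genotype spread widely in some of these, for example 11.7, 0.0179 and 29.9% for Efhd1-202 in wild type and 10.6, 2.08 and 0.0645% for Usp45-205 in knockout. In the next 2, the NMD form already held a large part of its gene in wild type, at low RPKM. Zfp324-202 (a zinc finger gene) went from 46.3, 45.6 and 58.5% to 98.8, 82.1 and 100%. Its own level was 1.15 to 1.89 RPKM and then 1.77 to 2.71 RPKM. The other Zfp324 transcripts summed to 1.34 to 1.70 RPKM and then at most 0.386 RPKM. Rad51d-206 (a gene of recombination repair) went from 70.5, 78.8 and 60.9% to 98.1, 100 and 84.5%. Its own level was 2.13 to 2.86 RPKM and then 2.83 to 3.16 RPKM. The other Rad51d transcripts summed to 0.77 to 1.37 RPKM and then 0 to 0.518 RPKM, so the rise lay mostly in that term. Ktn1-217, a minor form of the gene of the kinesin anchor kinectin, went from 3.05, 2.56 and 5.87% to 19.2, 21 and 18.6% (log2 ratio change 2.68 ± 0.64 SE, limma adjusted p = 0.0403). Of the rises in this paragraph, only Ttc3-231 passed with a sex term (limma adjusted p = 0.0435).

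The members called were picked by the ratio of their own RPKM to that of the gene's other transcripts. The direction of each term is therefore partly fixed by that choice. Of the 77 that were lower, 76 had a lower mean log2 RPKM of their own in knockout and 63 a higher one for the gene's other transcripts, with median changes of -1.33 and 0.39. Of the 33 that were higher, 31 were higher themselves and 23 came from genes whose other transcripts were lower, with medians of 0.89 and -0.44. Over all 2001 tested members the medians were -0.10 and 0.09. Of these, 1094 were lower themselves and 907 higher, and the other transcripts were higher for 1121 and lower for 880. The change of the other transcripts was not tested. By the class of their stop codon, 4.14% of members with a stop in a shared exon were called, 5.67% of those in an exon with other ends, 6.17% of those in an exon outside coding transcripts and 10.1% of those whose stop a coding transcript shares (14 of 139). These 14 were 5 higher and 9 lower. Over all tested members 5.50% were called, and over all tested transcripts 6.37%. Differences between the classes were not tested. The members called lower had a median length of 1740 bases and those called higher 2158 bases, against 1545 bases over all tested members. Across the 2001 tested members the change had a Spearman correlation of 0.11 with relative length and -0.06 with GC content, as a description over transcripts that share libraries.

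Splicing factor genes hold many NMD forms in this retina: 49 of the 75 genes on the list had 88 members, with a median share of 5.57%. At 12 months 5 of the 88 were higher and 9 lower in knockout, (6.37% of all tested transcripts were called, 2.72% higher and 3.64% lower), and their median change was -0.58, against -0.17 over all tested members and -0.01 over all transcripts. Hnrnpu-206 and Hnrnpu-211 are the same sequence on the chromosome and on a patch scaffold with equal values, so the 9 are 8 distinct RNAs. Beyond Hnrnpa1-203, Tra2b-206, Srsf7-203, Rbm39-224 and Tardbp-208, members of this list were named after their values were seen.

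The forms of this list that fell are given first. Hnrnpa1-203, with an intron removed behind the normal stop of the gene of hnRNP A1, held 7.66, 5.95 and 7.51% in 12-month wild type and 2.84, 2.48 and 3.84% in knockout (log2 ratio change -1.27 ± 0.24 SE, limma adjusted p = 0.0257). Its own level was 17.9, 14.7 and 18 RPKM against 7.7, 7.49 and 10.3 RPKM, while the other Hnrnpa1 transcripts summed to 216 to 233 RPKM against 259 to 294 RPKM. The NMD form was thus lower and the remainder higher in each 12-month knockout library. At P28 the remainder was lower in knockout, at 138 to 153 RPKM against 211 to 243 RPKM in wild type. The P28 share was 8.94, 8.89 and 5.6% in knockout and 5.61 to 5.76% in wild type. Srsf7-203, which carries an extra exon of an SR protein gene, held 5.12, 6.29 and 4.19% and then 1.18, 0.832 and 2.33% (change -1.97 ± 0.37 SE, limma adjusted p = 0.0259). Srsf6-201, of another SR protein gene, held 8.02, 6.41 and 5.16% and then 1.93, 1.17 and 2.56% (-1.87 ± 0.40 SE, limma adjusted p = 0.0327). Tra2b-206, with an extra exon of the SR-like regulator gene Tra2b, held 5.91, 5.31 and 3.54% and then 1.65, 2.83 and 2.33% (-1.13 ± 0.27 SE, limma adjusted p = 0.0402). In all 4 the 12-month knockout libraries lay below every library of the other 3 groups.

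Hnrnpu-206, from the gene of a nuclear scaffold protein, held 13.8, 13.2 and 9.75% and then 2.74, 0.568 and 4.07% (-2.84 ± 0.68 SE, limma adjusted p = 0.0412). Rbm5-210, from a gene that regulates exon inclusion, held 14.9, 12.8 and 12.7% and then 4.08, 1.03 and 7.52%, and at P28 10.6, 9.44 and 7.76% in knockout against 14.2 to 15.5% in wild type. Hnrnpa2b1-207 and Tial1-205 changed least, from 8.36 to 9.93% to 4.85 to 6.23% and from 22.8 to 25% to 16.3 to 19.4%. For Hnrnpa2b1-207 the 12-month wild type was the group that stood high, since P28 libraries held 5.55 to 7.05%. With a sex term none of these 8 passed (limma adjusted p from 0.0535 to 0.148), though each kept its direction.

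The 5 that rose were 3 forms of Rbm39, Prpf38b-204 and Tardbp-208, and none of them passed with a sex term (limma adjusted p from 0.0811 to 0.183). Tardbp encodes TDP-43, an RNA-binding protein that limits its own RNA through splicing behind the stop codon. Tardbp-208 held 0.965, 0.763 and 3.83% in 12-month wild type and 18.3, 24.8 and 17.8% in knockout (log2 ratio change 4.06 ± 0.80 SE, limma adjusted p = 0.0293), and at P28 1.01, 6.52 and 3.87% against 15.6, 4.74 and 16.8%. The other Tardbp transcripts summed to 172 to 197 RPKM in 12-month wild type and 211 to 240 RPKM in knockout, so here the NMD form and the remainder were both higher. Prpf38b-204, from the gene of a spliceosome component, held 7.72, 7.4 and 5.92% and then 20.4, 14.6 and 15% (1.38 ± 0.31 SE, limma adjusted p = 0.036). Rbm39-224 held 5.64, 5.93 and 5.44% and then 7.87, 8.09 and 7.81%, a small but even difference (0.51 ± 0.13 SE, limma adjusted p = 0.0485). At P28 it held 5.81, 6.72 and 5.82% in wild type and 9.92, 8.58 and 10.2% in knockout, also apart but not past the test (limma adjusted p = 0.139).

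**Figure D4:**
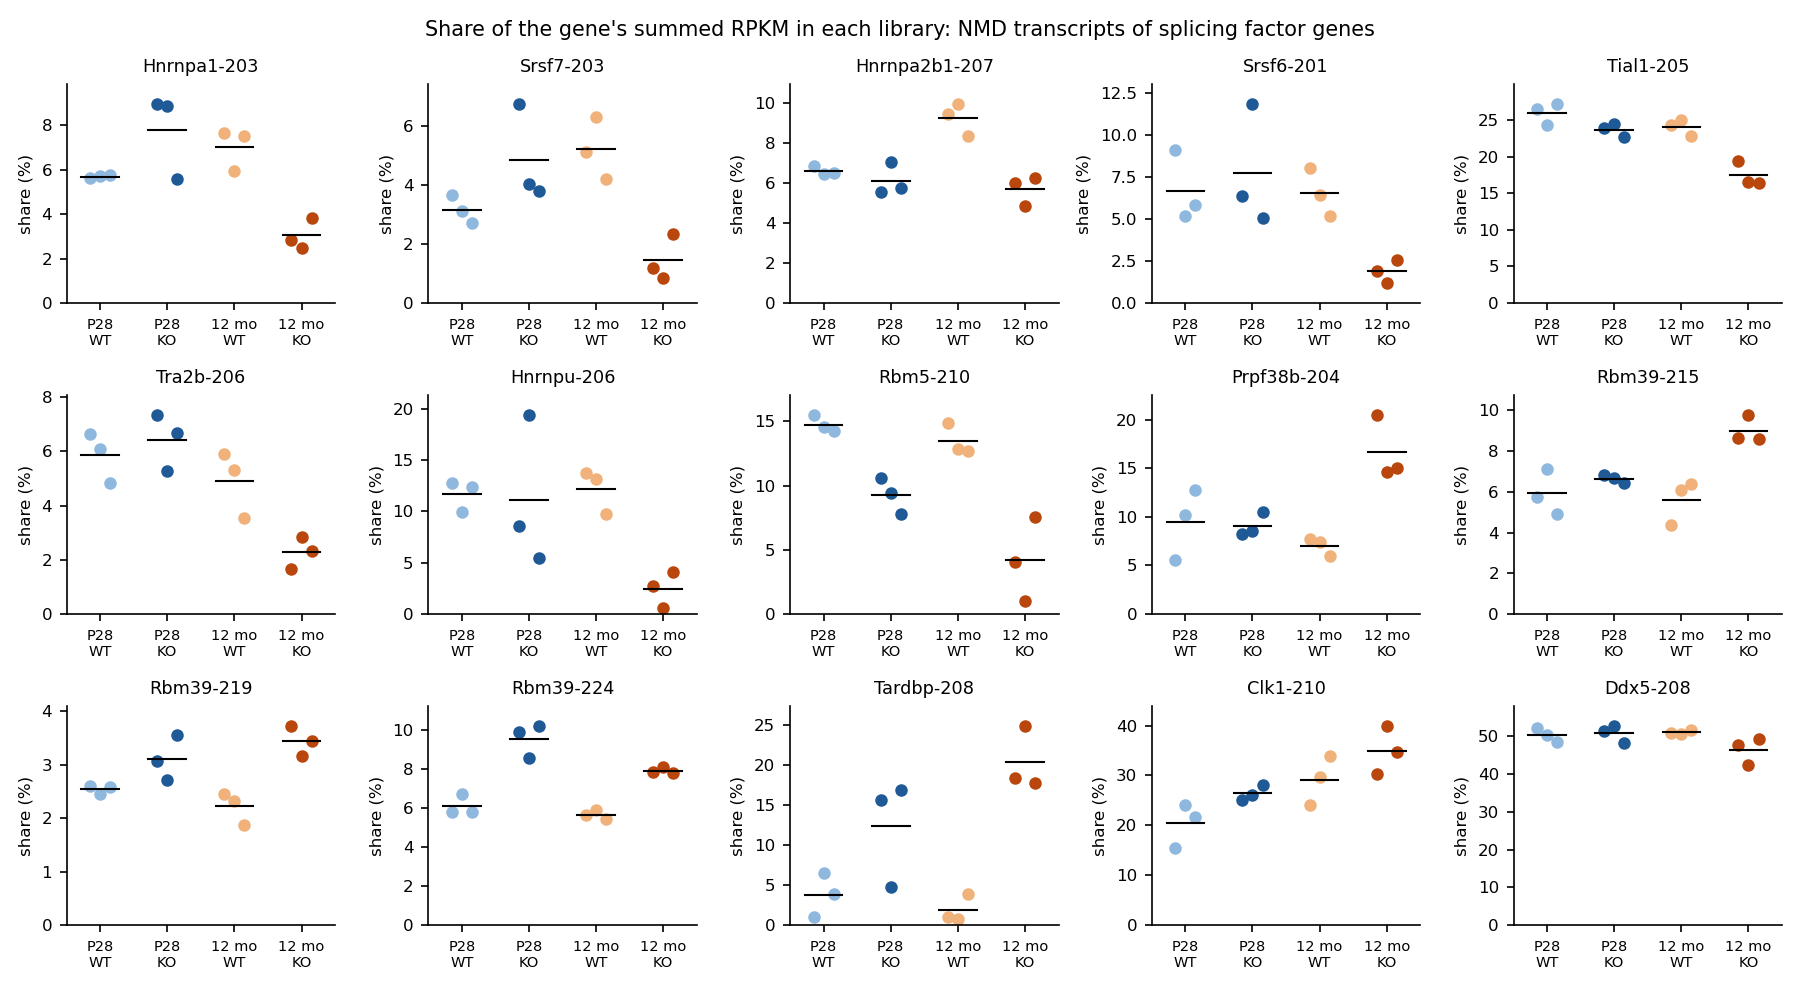
Share of the gene's summed RPKM (vertical axis, %) in each library (points, with the group mean as a bar) for 15 NMD transcripts of splicing factor genes, by age and genotype (WT, wild type; KO, knockout; mo, months). In the first 8 panels the 12-month knockout points lie below the 12-month wild-type points, in the next 5 they lie above, and the last 2, Clk1-210 and Ddx5-208, did not pass the test.

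In genes with several NMD forms only some of the forms passed. Rbm39, which encodes a cofactor of splicing, had the most members, 7, and 3 of them rose at 12 months. Of the other 4, Rbm39-223 was at 11.4, 13 and 7.6% in wild type and 4.97, 5.19 and 7.37% in knockout (log2 ratio change -0.93 ± 0.29 SE, limma adjusted p = 0.0748). Summed over the 7, the share was 27.8, 29.4 and 23.8% in 12-month wild type and 28.5, 29.2 and 30.6% in knockout, so the sums overlapped. Rabggtb, the gene of a subunit of the enzyme that lipidates Rab proteins, had 6 members. Rabggtb-203 and Rabggtb-205 were lower, from 2.23, 9.96 and 10.2% to at most 0.000155% and from 8.39, 9.54 and 5.76% to 0, 0 and 1.51%. Neither passed with a sex term. Rabggtb-210, whose stop lies as far from the last junction as that of Rabggtb-203 (499 bases), held 3.88, 2.8 and 1.79% in wild type and 8.31, 9.34 and 13% in knockout (limma adjusted p = 0.308). Tardbp had 6 members and Ttc3 had 5, and in each of these genes 1 member rose and no other passed. Their summed shares were 10.1 to 11.9% in wild type and 23.5 to 32.9% in knockout for Tardbp, and 15 to 18.4% and 23.5 to 38.3% for Ttc3.

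NMD forms of photoreceptor genes were few: 15 in 9 of the 80 genes listed, with a median share of 1.93%. Between genotypes at 12 months 1 of the 15 passed, with a lower share in knockout, near the 6.37% called over all transcripts. Cngb1-205, from the gene of the beta subunit of the rod cGMP-gated channel, did not pass at either age, but its groups did not overlap. It held 9.89, 10.2 and 9.96% in P28 wild type and 13.8, 15.5 and 15.4% in knockout (log2 ratio change 0.65 ± 0.13 SE, limma adjusted p = 0.149), and 7.8, 8.28 and 7.35% against 11.2, 10.8 and 9.93% at 12 months (0.49 ± 0.13 SE, limma adjusted p = 0.0527). The next 2 lists were drawn by gene symbol and took in Rps19bp1, of a protein that binds a ribosomal protein, and Sdhaf2, of an assembly factor. Of 16 members with ribosomal protein symbols 1 passed, also near that background: Rpl14-205 rose at 12 months, from 33.5, 49.3 and 35.4% to 82.1, 79.9 and 62.8% (2.27 ± 0.54 SE, limma adjusted p = 0.0402). Ribosomal protein genes have many near-identical copies, which makes that split uncertain. Of 17 members with respiratory chain symbols, the 2 that passed (against 6.37% of all transcripts) were copies of a single RNA of Atp5a1, the ATP synthase alpha subunit gene, at 34, 43 and 39.3% in wild type and 56.7, 65.9 and 53.3% in knockout (1.17 ± 0.29 SE, limma adjusted p = 0.0442). Neither Rpl14-205 nor this Atp5a1 form passed with a sex term.

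To ask whether the genotype difference changed with age, the 12-month difference was set against that at P28. No member passed (0 of 2001 in limma, 237 at an unadjusted p under 0.05, smallest adjusted p 0.0653 for Ppcdc-213), and 0.00984% of all tested transcripts did. The calls at 12 months are therefore not shown to differ from P28. Retreg2-204 had groups that were apart in opposite directions at the 2 ages, with the P28 knockout above wild type as given earlier and the 12-month knockout (0.000421, 3.29 and 4.45%) below wild type (8.51, 7.73 and 9.28%). The test of that difference gave an adjusted p of 0.146 in limma.

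Age itself was examined within each genotype. In wild type no member passed between 12 months and P28 (0 of 2001 in limma, 104 at an unadjusted p under 0.05, 0.00984% of all tested transcripts called). The next smallest p after Retreg2-204 was that of Agbl3-208, likewise named after its values were seen, from a tubulin deglutamylase gene, at 4.23, 3.49 and 2.71% at P28 and 8.19, 9.99 and 8.33% at 12 months (log2 ratio change 1.36 ± 0.26 SE, limma adjusted p = 0.313). In knockout 25 passed, 5 higher and 20 lower at 12 months, which is 1.25% of the members against 1.11% of all tested transcripts (0.466% higher and 0.64% lower). This comparison shares the 12-month knockout libraries with that between genotypes. With a sex term 2 passed in limma, in a fit of the knockout libraries alone 0 did (286 at an unadjusted p under 0.05), and without any 1 library other than 12-month knockout library 3 (26) or P28 knockout library 3 (45) the number was 5 to 13.

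The falls with age in knockout were led by Atp2c1-218, Stx5a-218, Ppcdc-213 and Actr10-203, and the list of splicing factors held 4 (Hnrnpa1-203, Srsf6-201, Srsf7-203 and Tra2b-206). Atp2c1-218 held 1.37, 23.4 and 2.73% at P28 and 0.191, 0 and 0% at 12 months in knockout, so that P28 library 2, which stood apart on lens markers, was far above the others. It passed in limma without that library, and not without both knockout libraries numbered 2. Actr10-203, from a gene of the dynein activator dynactin, held 18.9, 21.9 and 13% at P28 and 7.62, 1.22 and 2.62% at 12 months in knockout (-2.75 ± 0.55 SE, limma adjusted p = 0.0472). In wild type it held 16.8 to 18.6% at P28 and 11.8 to 20.3% at 12 months. Prom1-218, from the gene of prominin 1, which shapes photoreceptor discs, held 1.11, 1.77 and 1.08% and then 0.628, 0.684 and 0.48% (-1.11 ± 0.22 SE, limma adjusted p = 0.0464). The rises were in Gulp1-202, Bdh1-207, Gstk1-203, Bbs5-205 and Capn7-203, the last named after its values were seen. Gulp1-202, from an adaptor gene of engulfment, held 2.85, 12.9 and 15.7% at P28 and 40.8, 50.2 and 51.8% at 12 months in knockout, with 5.17 to 8.17% and 16.9 to 30.5% in wild type. Bdh1-207, from the gene of a ketone body dehydrogenase, held 42, 40.5 and 17.7% and then 68.6, 69.6 and 66.7%. Gstk1-203, from a glutathione transferase gene, held 14.6, 10.4 and 19.2% and then 45.8, 44.8 and 38.3%. Bbs5-205, from a gene of the ciliary BBSome, held 4.86, 5.91 and 5.8% and then 12.7, 9.68 and 16.7%, and in wild type 6.31 to 8.03% and 10.9 to 16.5%.

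The level of the decay machinery was read from the gene table as CPM, over 5 lists of 65 genes, 64 of them tested with 16486 genes in all. At 12 months 13 rose and 22 fell in knockout, against 39.6% of all genes called (16.1% higher and 23.5% lower). Of the 13 core NMD genes 3 rose and 5 fell. Upf1, the helicase at the centre of the pathway, gave 25.1, 21.2 and 23 CPM in 12-month wild type against 13.1, 8.77 and 13.6 CPM in 12-month knockout (log2 fold change -0.93 ± 0.18 SE, limma adjusted p = 0.00379). Smg9, a partner of the SMG1 kinase, gave 8.77, 7.42 and 8.27 CPM against 2.73, 2.24 and 4.54 CPM (-1.17 ± 0.19 SE, limma adjusted p = 0.00281). Both were lower in every knockout library. Without 12-month knockout library 2 or wild-type library 3, 20 or 22 of the 64 passed in limma, after quantile normalization 26 did, and with a sex term 27 did. Smg6, the endonuclease of the pathway, fell by less (-0.39 ± 0.13 SE, limma adjusted p = 0.0303, and in limma 0.051 after quantile normalization and 0.174 with a sex term). Pnrc2, a decapping adaptor, rose from 119, 124 and 125 CPM to 159, 180 and 150 CPM (0.40 ± 0.10 SE, limma adjusted p = 0.00778).

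Of 12 exon junction complex genes 1 rose and 5 fell at 12 months. The counts of each list here stand against 16.1% of all genes called higher and 23.5% lower. Ddx39b, a helicase of splicing and export, gave 102, 84.8 and 92.5 CPM against 48.8, 30.2 and 54.2 CPM (-1.09 ± 0.20 SE, limma adjusted p = 0.0033), and Pym1, which takes the complex apart, also fell (-0.74 ± 0.17 SE, limma adjusted p = 0.00594). Magohb, a core subunit, rose from 5.18, 5.28 and 5.59 CPM to 8.46, 8.66 and 9.6 CPM (0.64 ± 0.19 SE, limma adjusted p = 0.0197, and 0.138 with a sex term). Among 9 termination and cap genes 3 rose and 1 fell: Gspt1, the release factor eRF3, rose from 152, 166 and 166 CPM to 237, 244 and 223 CPM (0.54 ± 0.10 SE, limma adjusted p = 0.00355), and Ctif, of the cap-binding route, fell (-0.62 ± 0.10 SE, limma adjusted p = 0.00256). Eif4e and Etf1, the other 2 that rose, did not pass after quantile normalization (limma adjusted p = 0.634 and 0.161). Among 18 genes of general mRNA decay 6 rose, Cnot7 and Ddx6 among them, and 7 fell, Exosc10 among them. Of 12 tested genes whose RNAs NMD is known to hold down, 4 fell and 0 passed as higher, against 23.5% and 16.1% of all genes. So few genes do not set this list apart from that background. Ddit3, a stress-induced factor, gave 14.7, 12.3 and 15.4 CPM against 9.59, 6.7 and 8.17 CPM (-0.73 ± 0.16 SE, limma adjusted p = 0.00537).

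**Figure D5:**
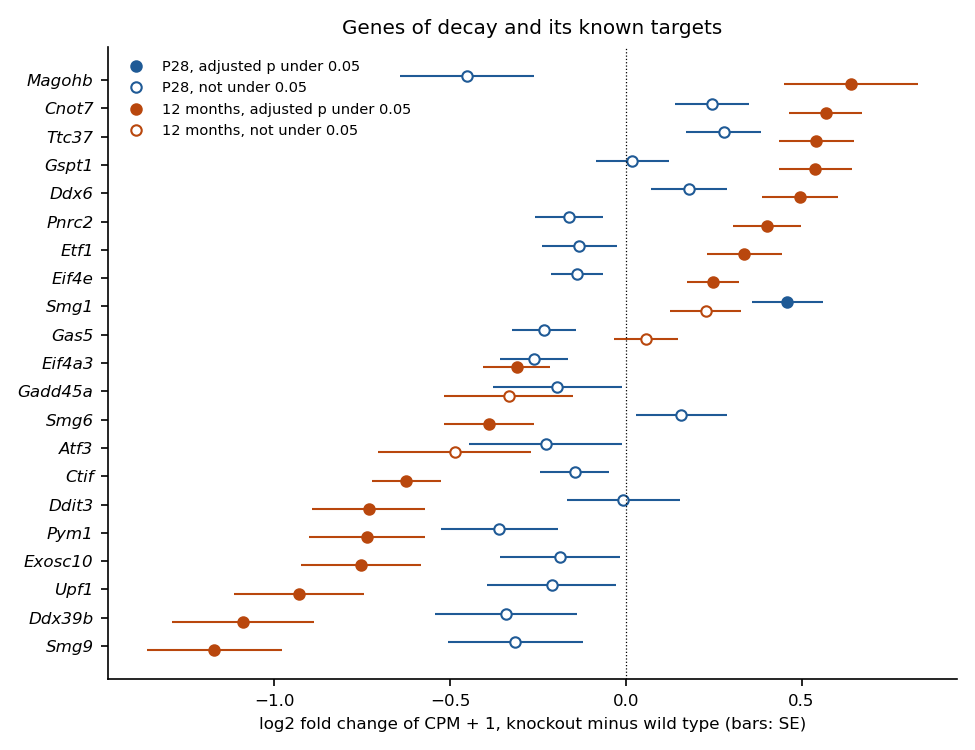
Log2 fold change of CPM + 1, knockout minus wild type (horizontal axis, bars are standard errors), at P28 and at 12 months for genes of decay and known targets (vertical axis). Filled points have a limma adjusted p under 0.05: at P28 this is Smg1 alone, while at 12 months Smg9, Ddx39b and Upf1 lie farthest to the left.

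At P28 the kinase gene Smg1 was the only one of the 64 that passed, with 403, 430 and 355 CPM against 480, 622 and 538 CPM (0.46 ± 0.10 SE, limma adjusted p = 0.0457), while 1.49% of all genes were called (1% higher and 0.491% lower). It did not pass with a sex term (limma adjusted p = 0.285) or after quantile normalization (limma adjusted p = 0.101), and passed in 3 of 12 fits that left out 1 library. No pathway gene passed in the test of the difference between ages (0 of 64 in limma; of all genes 0.0789% were called higher and 0.0971% lower, 0.176% in all). Without P28 knockout library 3 the number was 18. With age, 2 rose and 1 fell in wild type (of all genes 5.4% were called, 3.65% higher and 1.75% lower). In knockout 13 rose and 6 fell (of all genes 27.2% were called, 13.3% higher and 13.9% lower), and without 12-month knockout library 2 the number that passed was 10. Atf3, a stress-induced factor whose RNA is an NMD target, rose with age in both, from 5.14, 3.54 and 2.89 CPM to 10.2, 8.86 and 9.75 CPM in wild type (1.15 ± 0.22 SE, limma adjusted p = 0.00795, and 0.0802 with a sex term) and in knockout from 2.5, 4.28 and 2.65 CPM to 6.1, 5.2 and 8.76 CPM (0.89 ± 0.22 SE, limma adjusted p = 0.011, and 0.0301 with a sex term). The machinery genes themselves gave few NMD forms to follow: Smg5-202 among the core genes, at 8.17 to 34.5% of its gene, and Magohb-202 and Srrm1-204 among the exon junction complex genes. None of these 3 passed in any comparison.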

How the data were processed

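Poly(A) RNA of 12 mouse retina libraries was read as paired 125-base reads. Per the submitters' processing notes, transcripts were quantified with kallisto 0.45.0 against Ensembl 102, summed to genes with tximport 1.30.0, and CPM were TMM-scaled with edgeR 4.0.3. The notes name a human build although all identifiers are mouse. The gene table deposited by the authors holds this CPM per effective library (a signal, not counts), and the table of transcripts deposited by the authors holds RPKM, for which the way of making them is not given in the sources used here. Estimates for transcripts that share most of their sequence are uncertain, and at 0 to 3 reads a transcript cannot be told from an absent one.

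A transcript entered the test where it reached 1 RPKM in 3 libraries and other transcripts of its gene did too. The log2 ratio of transcript to other transcripts, each plus 0.1 RPKM, and log2(CPM + 1) for genes were fitted with limma 3.58.1 in R 4.3.3 over the means of the 4 groups, with a trend in the prior spread and Benjamini-Hochberg adjustment over all transcripts or genes, called under 0.05. These steps were tested on simulated data. Annotation was GENCODE vM21. Named by rule were the 8 largest rises and falls between genotypes (4 for age in knockout) among called members with shares that do not overlap and reach 5% in a group, the 10 highest shares and levels, up to 4 members of each host gene list, and up to 4 pathway genes of each list with Upf1, Smg1 and Smg6. The members and lists were chosen with earlier results of these data known. Alternatives covered the pseudocount, filter, denominator, scale, sex, replicate number and each library left out. Some transcripts and sequences are not reported here.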

Additional observations from a re-analysis of the deposited data

How the results depend on the processing

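In share changes at P28 (0 calls) the number was 3 at an adjusted p of 0.10, 2 with array weights or with coding transcripts as denominator, 1 with a pseudocount of 0.01 or without both knockout libraries numbered 2, and 0 to 1 when single libraries were left out. At 12 months (110) it was 289 at 0.10, 217 with array weights, 175 with a pseudocount of 1, 55 after removal of a GC and length trend, 54 with the replicate block, 38 with a filter of RPKM above 0, 13 with a sex term, 5 with that trend and a sex term, 5 in male libraries only, and 4 to 259 with single libraries left out. For the difference between ages (0) it was 1 at 0.10 or after the GC and length correction, 3 with a pseudocount of 0.01, and 0 to 7 with single libraries left out. For age in wild type (0) it was 1 with array weights, in male libraries or with only the groups compared, and 0 to 1 with single libraries left out. For age in knockout (25) it was 93 at 0.10, 15 with 1 RPKM required in all 12 libraries, 14 on the arcsine scale or with array weights, 8 without both knockout libraries numbered 2, 7 with RPKM above 0, 6 with the replicate block, 5 in male libraries, 2 with a sex term with or without the GC and length correction, 0 with only the groups compared, and 5 to 45 with single libraries left out. For pathway genes the P28 count (1) was 0 with the filter of CPM above 0, quantile normalization, the replicate block or a sex term, and 0 to 6 with single libraries left out. With single libraries left out the pathway count was 20 to 41 at 12 months (35), 0 to 18 for the difference between ages (0), 1 to 6 for age in wild type (3) and 10 to 25 for age in knockout (19). For age in wild type it was also 1 with CPM above 0 or the replicate block and 0 with a sex term, and for age in knockout 11 with a sex term. The cause of these shifts was not tested, except that fits with fewer libraries or added terms estimate the spread from fewer samples. Deviations from the group means correlated between -0.191 and 0.147 for same-numbered libraries of different groups. For differently numbered ones the range was -0.256 to 0.238. The numbers thus gave no sign of pairing, which so few libraries in a group cannot exclude. Over the named transcripts and genes, 1416 of the recomputed values kept their side of the threshold, 817 of the called values no longer passed and 0 turned direction. Direction could not turn in fits that left out a library of a group outside the comparison. Alternatives for leaving out both knockout libraries numbered 2, male libraries, patch scaffolds and the combined correction were chosen after seeing the data. Depth limits weak forms: 3 reads correspond to 0.110 to 0.191 CPM.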
